A study of Mus musculus with 12 samples.

Results

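NKG2D (gene Klrk1) and 8 related genes of killer cell recognition were followed in skin of mice with alopecia areata treated topically with baricitinib. The genes were Klrk1, Klrc1, Klrc2, Klrd1, Klrg1, Klre1, Ncr1, Hcst and Tyrobp, and their members on the array were all probe sets annotated with one of these symbols alone. All 9 genes had a probe set, which gave 10 probe sets of the 45037 tested (9 of 18193 genes). Klrc1 had 2 probe sets and each other gene had 1. One further probe set is annotated to both Klrc3 and Klrc2 and is given separately.

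Expression was measured on 12 Affymetrix mouse genome arrays, one per skin biopsy, in 4 groups of 3. The groups were baricitinib at week 12, baricitinib at week 0, vehicle control at week 12 and vehicle control at week 0. Baricitinib, an inhibitor of the kinases JAK1 and JAK2, or vehicle alone was applied topically once disease was established, and week 0 is the start of treatment. All mice were C3H/HeJ recipients of alopecic C3H/HeJ skin, aged after grafting until hair loss was nearly complete. Each treatment had 3 mice, numbered in the labels, and each mouse gave skin at both times, so the 12 arrays came from 6 mice. Values are on the log2 scale after RMA, and a difference of 1 on this scale is a doubling. The graft induces the disease in this strain, and no group without the disease was measured here. Skin was taken whole, so that fewer cells of a type and less RNA per cell cannot be told apart in any value below.

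NKG2D is an activating receptor of natural killer (NK) cells and CD8+ T cells, and CD8+ NKG2D+ T cells are the cells known to surround hair follicles in alopecia areata. It recognises stress-induced relatives of MHC class I on target cells and signals through the adaptor DAP10 (Hcst), and in mice also through DAP12 (Tyrobp). CD94 (Klrd1) pairs with NKG2A (Klrc1) to form an inhibitory receptor for the nonclassical MHC class I molecule Qa-1, and with NKG2C (Klrc2) to form an activating receptor that uses DAP12. Klrg1 encodes an inhibitory receptor for cadherins, Klre1 encodes a lectin-like receptor of rodent NK cells, and Ncr1 encodes NKp46, an immunoglobulin-like activating receptor of NK cells. DAP12 is also used by many receptors of myeloid cells, so Tyrobp is not a marker of killer cells alone.

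The genes lie in 3 places of the mouse genome (RefSeq positions, build GRCm38.p6). The NK gene complex on chromosome 6 holds Klre1 (chr6:129559365-129585828), Klrd1 (chr6:129588092-129598775), Klrk1 (chr6:129610323-129623903), Klrc2 (chr6:129649602-129660737) and Klrc1 (chr6:129666015-129682852), in this order, with Klrc3 (chr6:129636263-129643511) between Klrk1 and Klrc2. Klrg1 lies further away at chr6:122270596-122282833. Tyrobp (chr7:30413782-30417582) and Hcst (chr7:30417712-30419854) are neighbours on chromosome 7, and Ncr1 lies at chr7:4337715-4345184 of the same chromosome. The 250 bases before an annotated start site are shown for the 2 genes of the NK gene complex that the results turn on, Klrc1, the one member that passed a test, and Klrk1, the gene of NKG2D. Both are on the minus strand, Klrc1 at chr6:129678974-129679223 and Klrk1 at chr6:129623865-129624114, written 5' to 3' from the RefSeq C57BL/6J reference, so that a difference in C3H/HeJ would not show. The Klrc1 window lies inside the positions given for the gene, so it belongs to a start site other than the outermost one. That of Klrk1 reaches from just inside its gene to beyond it. Capitals mark matches to the letters searched.
Klrc1: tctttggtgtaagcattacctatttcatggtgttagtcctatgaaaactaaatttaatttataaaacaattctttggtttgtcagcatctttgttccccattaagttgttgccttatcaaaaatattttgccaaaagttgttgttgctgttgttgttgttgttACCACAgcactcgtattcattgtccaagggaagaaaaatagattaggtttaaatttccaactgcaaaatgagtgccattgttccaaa
Klrk1: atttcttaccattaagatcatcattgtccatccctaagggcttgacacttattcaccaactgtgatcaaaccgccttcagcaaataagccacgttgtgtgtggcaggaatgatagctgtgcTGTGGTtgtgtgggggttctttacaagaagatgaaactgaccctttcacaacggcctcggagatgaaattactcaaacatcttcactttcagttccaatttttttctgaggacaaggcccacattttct
The letters searched, on both strands, were TTCNNNGAA (the STAT site called GAS), TCACAC (T-box), TGTGGT (RUNX) and AGGAAG (ETS), families active in T and NK cells. Each window held 1 match, to the RUNX letters, at -87 to -82 from the start site in Klrc1 (on the opposite strand) and at -129 to -124 in Klrk1. Of 32851 promoter windows of the same length, 14% held the RUNX letters, 29.5% the ETS letters, 12.3% the T-box letters and 7.02% the GAS letters. A window was found for 6 of the 9 genes. A match of letters is a description of the sequence and was not tested as a binding site.

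Klrc1, which encodes the inhibitory receptor NKG2A, fell with baricitinib. Its bright probe set (1425005_at) was at 5.20, 5.98 and 5.20 in baricitinib skin at week 12, against 8.40, 7.80 and 7.79 in the same mice at week 0. In vehicle skin it was at 7.81, 7.94 and 7.98 at week 12 and at 7.94, 8.48 and 9.20 at week 0. The 3 baricitinib arrays of week 12 thus lay below the other 9, with no overlap. Between week 12 and week 0 of baricitinib the log2 difference was -2.54 (SE 0.34, 95% CI -3.28 to -1.80), 5.82-fold lower, at an adjusted p of 0.00717 from limma. Against vehicle at week 12 the difference was -2.45 (SE 0.34, 95% CI -3.19 to -1.71), 5.46-fold lower, at a limma adjusted p of 0.0113. That second call rested on single arrays, because without baricitinib week 12 replicate 3, vehicle week 12 replicate 1 or vehicle week 12 replicate 2 the adjusted p was 0.0517, 0.0576 and 0.0611. The vehicle mice had -0.63 between week 12 and week 0 (95% CI -1.38 to 0.11, limma adjusted p = 0.9999).

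Read mouse by mouse, Klrc1 was lower at week 12 in all 6 mice and by more under baricitinib. The change was -3.21, -1.82 and -2.60 in the baricitinib mice and -0.14, -0.54 and -1.23 in the vehicle mice, so the smallest change with baricitinib exceeded the largest with vehicle. The difference between the 2 changes was -1.91 (SE 0.48, 95% CI -2.95 to -0.86), which had an unadjusted p of 0.00193 and did not pass after adjustment over all probe sets (limma adjusted p = 0.332).

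The other Klrc1 probe set (1426182_a_at) was dim and did not show the same difference. It lay below the array median 12 times of 12, with values between 2.42 and 4.24. Its mean was 2.73 ± 0.31 in baricitinib skin at week 12 and 3.11 ± 0.62 at week 0 (SD, n = 3), a difference of -0.38 (95% CI -1.43 to 0.67, limma adjusted p = 0.829). The deposited values carry no detection call, so it is not known whether this probe set measured the transcript.

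Klrd1, which encodes CD94, the partner of NKG2A, had the values most like those of Klrc1 among the members but did not pass the test. It was at 5.50, 7.07 and 6.82 in baricitinib skin at week 12, against 8.75, 8.52 and 8.25 at week 0. Vehicle skin had 8.59, 8.53 and 8.15 at week 12 and 8.43, 9.12 and 10.04 at week 0. Here too the baricitinib arrays of week 12 were the lowest 3 of the 12. The difference was -2.04 between week 12 and week 0 of baricitinib (SE 0.45, 95% CI -3.02 to -1.06, limma adjusted p = 0.0536) and -1.96 against vehicle at week 12 (SE 0.45, 95% CI -2.94 to -0.98, limma adjusted p = 0.0889). Replicate 1 of baricitinib at week 12, at 5.50, was the lowest of all. Vehicle mice differed by -0.77 between the times, with changes of 0.17, -0.59 and -1.89, and the difference of the 2 changes was -1.27 (95% CI -2.66 to 0.11, limma adjusted p = 0.834). Over the 12 arrays Klrd1 and Klrc1 had a Pearson correlation of 0.95, and of 0.77 for deviations from the group means, as a description of arrays that share mice and scaling.

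**Figure D1:**
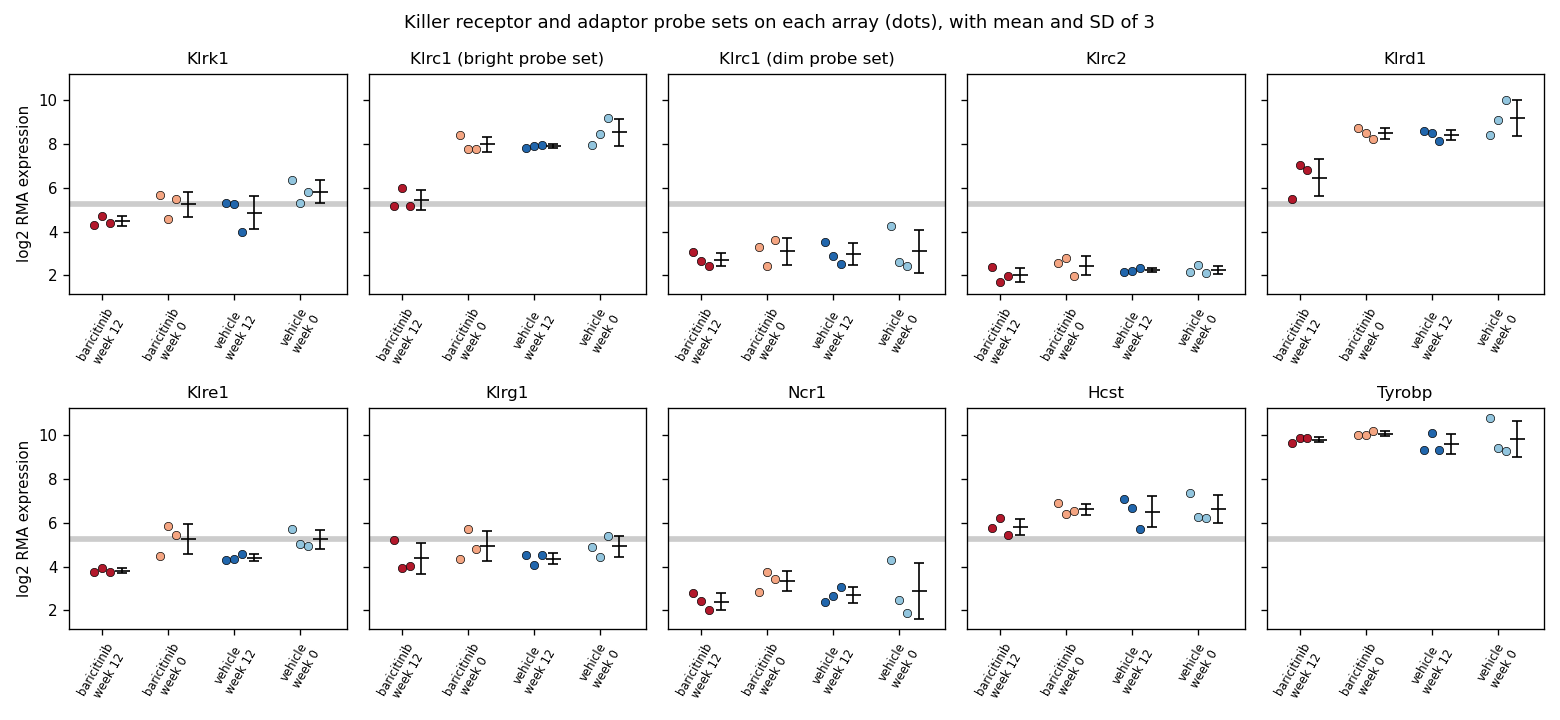
Log2 RMA level (y axis) of the 10 probe sets in the 4 groups (x axis); dots are arrays in replicate order, bars are the mean and SD of 3, and the grey band spans the medians of the arrays (5.16 to 5.35). Klrc1 (bright probe set), Klrd1 and Klre1 have their 3 baricitinib week 12 arrays below all others. For Klrk1 each group overlaps with another, though baricitinib week 12 lies below vehicle week 0.

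Klrc2 encodes NKG2C, the activating counterpart, and was dim throughout. Its probe set had levels between 1.72 and 2.81, among the lowest 12.2% of probe sets on each array. The mean was 2.02 ± 0.34 in baricitinib skin at week 12 and 2.45 ± 0.44 at week 0 (SD, n = 3), a difference of -0.43 (SE 0.26, limma adjusted p = 0.585). The probe set shared by Klrc3 and Klrc2 had -0.50 in that comparison and -0.36 against vehicle at week 12, neither past the test.

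Klrk1 itself, the gene of NKG2D, was lower at week 12 in both treatments and passed no test. It was at 4.31, 4.73 and 4.40 in baricitinib skin at week 12, against 5.68, 4.58 and 5.48 at week 0. Vehicle skin had 5.33, 5.27 and 3.99 at week 12 and 6.36, 5.30 and 5.84 at week 0. All 4 groups overlapped with a neighbour, and the order of their means was baricitinib week 12 (4.48 ± 0.22), vehicle week 12 (4.87 ± 0.76), baricitinib week 0 (5.25 ± 0.59) and vehicle week 0 (5.83 ± 0.53; SD, n = 3). No neighbours in this order differed by more than the larger SD of the pair, which describes 3 arrays a group and is not a test. The 2 groups of week 0 came nearest, with a difference of -0.59 beside an SD of 0.59. The difference was -0.77 over time with baricitinib (SE 0.42, 95% CI -1.68 to 0.15, limma adjusted p = 0.516) and -0.39 against vehicle at week 12 (95% CI -1.30 to 0.53, limma adjusted p = 0.859). It was -0.97 over time with vehicle (SE 0.42, 95% CI -1.88 to -0.06), which had an adjusted p of 0.9999 from limma.

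No greater change with baricitinib than with vehicle was seen for Klrk1. The changes were -1.37, 0.16 and -1.09 in the baricitinib mice and -1.03, -0.03 and -1.85 in the vehicle mice. Each treatment held 1 mouse near 0 and 2 mice more than 1 unit lower. The baricitinib mouse near 0 was mouse 2, whose week 0 array had the lowest mean correlation with the other arrays (0.941). The difference of the 2 changes was 0.20 (95% CI -1.09 to 1.49, limma adjusted p = 0.992), an interval that includes a difference of 1 log2 unit in either direction. Klrk1 was above the array median on 6 of the 12 arrays, and having 3 arrays a group limits how precisely its change is known.

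Hcst encodes DAP10, one of the adaptors of NKG2D. It was at 5.78, 6.20 and 5.45 in baricitinib skin at week 12, against 6.89, 6.40 and 6.56 at week 0, with no overlap. Vehicle skin had 7.10, 6.70 and 5.71 at week 12 and 7.36, 6.28 and 6.23 at week 0, which did overlap. The difference with baricitinib was -0.81 (SE 0.40, 95% CI -1.67 to 0.06, limma adjusted p = 0.460), against vehicle at week 12 it was -0.69 (limma adjusted p = 0.610), and with vehicle over time it was -0.12. Of the members, Hcst and Klrk1 had a correlation of 0.81 over the 12 arrays, and of 0.85 within the groups.

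Tyrobp encodes DAP12, and its probe set was above the median on all 12 arrays, between 9.27 and 10.77. Its mean was 9.80 ± 0.13 in baricitinib skin at week 12, 10.08 ± 0.12 in baricitinib skin at week 0, 9.59 ± 0.45 in vehicle skin at week 12 and 9.83 ± 0.82 in vehicle skin at week 0 (SD, n = 3). The difference over time with baricitinib was -0.28 (95% CI -1.08 to 0.53, limma adjusted p = 0.839), small beside those of Klrc1 and Klrd1, although its groups did not overlap. Against vehicle at week 12 it was 0.21 (95% CI -0.60 to 1.02).

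Klre1 was lower at week 12 in every mouse of both treatments. It was at 3.73, 3.94 and 3.77 in baricitinib skin at week 12, against 4.48, 5.83 and 5.44 at week 0. Vehicle skin had 4.30, 4.33 and 4.58 at week 12, against 5.72, 5.04 and 4.96 at week 0. In both treatments week 12 lay below week 0 with no overlap. The baricitinib arrays of week 12 lay below all other arrays, as for Klrc1 (bright probe set) and Klrd1. The difference was -1.44 with baricitinib (SE 0.33, 95% CI -2.16 to -0.71, limma adjusted p = 0.0645) and -0.84 with vehicle (95% CI -1.56 to -0.11, limma adjusted p = 0.9999). Between the treatments at week 12 it was -0.59 (limma adjusted p = 0.596), and the difference of the changes was -0.60 (95% CI -1.63 to 0.42).

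Ncr1 and Klrg1 did not pass in any comparison. Ncr1 was below the median on all 12 arrays, at 2.39 ± 0.39 in baricitinib skin at week 12 and 3.34 ± 0.47 at week 0, and at 2.70 ± 0.36 in vehicle skin at week 12 and 2.89 ± 1.27 at week 0 (SD, n = 3). Its baricitinib groups did not overlap, with a difference of -0.94 (95% CI -2.09 to 0.20, limma adjusted p = 0.526). Klrg1 had 4.38 ± 0.71 in baricitinib skin at week 12 and 4.96 ± 0.69 at week 0, and 4.36 ± 0.26 in vehicle skin at week 12 and 4.92 ± 0.47 at week 0 (SD, n = 3). The difference over time was -0.58 with baricitinib and -0.56 with vehicle, and these changes differed by -0.02 (95% CI -1.32 to 1.28). Baricitinib mouse 1 was the exception for Klrg1, 0.86 higher at week 12. The week 12 array of that mouse was 1 of the 2 with the lowest mean correlation with the other arrays (0.946). Without that array Klrg1 against vehicle at week 12 was -0.39, beside 0.02 with all arrays.

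**Figure D2:**
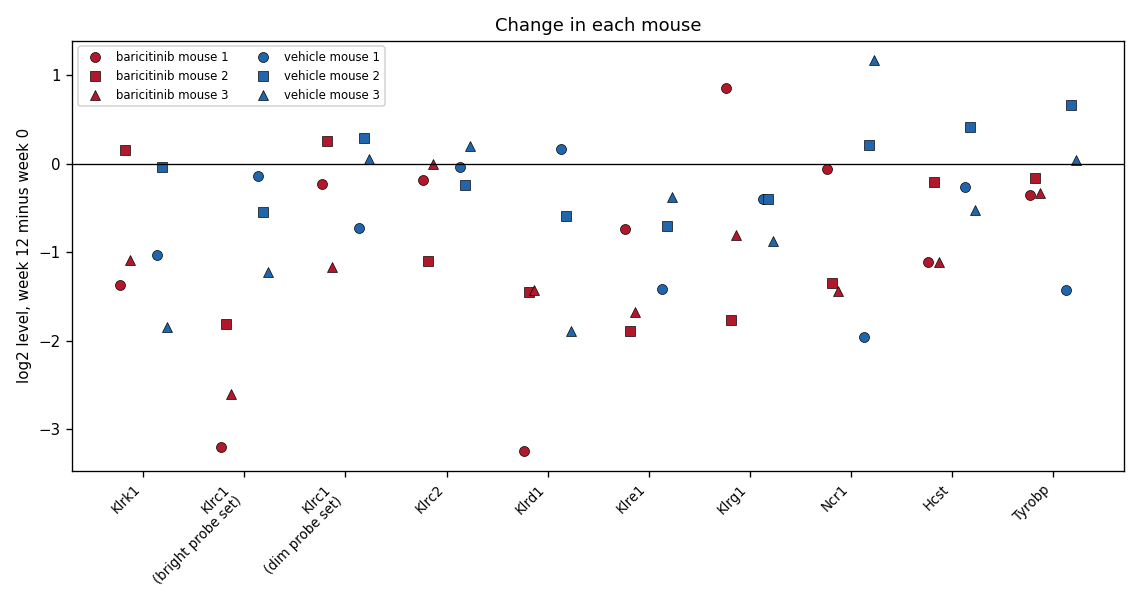
Change of each mouse, log2 level at week 12 minus week 0 (y axis), for the 10 probe sets (x axis); red symbols are the 3 baricitinib mice and blue symbols the 3 vehicle mice. For the bright Klrc1 probe set the baricitinib mice lie between -3.21 and -1.82, below the vehicle mice at -1.23 to -0.14, whereas for Klrk1 the mice of both treatments mix.

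Counted together, the members were lower at week 12 than at week 0 of baricitinib by a median of -0.79, against 0.00 over all probe sets. All 10 differences were below 0, against 49.7% of all probe sets. Of the 10 probe sets 1 was called lower and 0 higher at an adjusted p under 0.05. The background of that count was 394 lower and 163 higher probe sets, 0.875% of all probe sets lower and 1.24% in either direction. In 6 of the 10 the 3 arrays of week 12 lay below the 3 of week 0, against 7.91% of all probe sets. Before adjustment 3 of the 10 (Klrc1, Klrd1 and Klre1) had a p under 0.05, as did 12.3% of all probe sets.

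At week 12 the members were lower in baricitinib than in vehicle skin by a median of -0.35 (0.01 over all probe sets). Of their differences 8 of 10 were below 0, against 48.7% of all probe sets. Klrc1 was the 1 probe set called, while 0.429% of all probe sets were called lower and 0.58% in either direction. The groups did not overlap for 3 of the 10 (Klrc1, Klrd1 and Klre1), against 9.69% of all probe sets. Both comparisons share the baricitinib week 12 arrays.

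In vehicle mice the mean levels of the members were also lower at week 12. All 10 differences were below 0, against 46.3% of all probe sets, with a median of -0.40 (0.02 over all probe sets). That count rested on 1 array, vehicle week 0 replicate 1. Without it the difference was above 0 for Hcst (0.25), Ncr1 (0.53), Tyrobp (0.23) and the dim Klrc1 probe set (0.45). Yet limma called 0 of the 10, as it called 0% of all probe sets. Klrk1 and Klre1 were the 2 with an unadjusted p under 0.05, beside 2.46% of all probe sets. At week 0 baricitinib and vehicle mice differed in 0 of the 10 by limma (0% of all probe sets, and 0 of the 10 at an unadjusted p under 0.05, against 1.13% of all), with a median of 0.01. For the difference of the changes limma called 0 of the 10 (0% of all probe sets). Here 9 of 10 were below 0, against 52.4% of all probe sets, with a median of -0.50. Klrc1 was the 1 with an unadjusted p under 0.05. Of all probe sets 6.27% had such a p, and 1 of 10 is near that share.

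Within single mice, 7 of the 10 probe sets were lower at week 12 in all 3 baricitinib mice. These were the bright probe set of Klrc1, Klrc2, Klrd1, Klre1, Ncr1, Hcst and Tyrobp, with Klrc2 in baricitinib mouse 3 at -0.000253, which is no change. In the vehicle mice 4 of the 10 were lower in all 3, namely Klrk1, Klrc1 (bright probe set), Klre1 and Klrg1. The share of all probe sets that were lower in all 3 mice of a treatment was not computed, so these counts have no background.

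**Figure D3:**
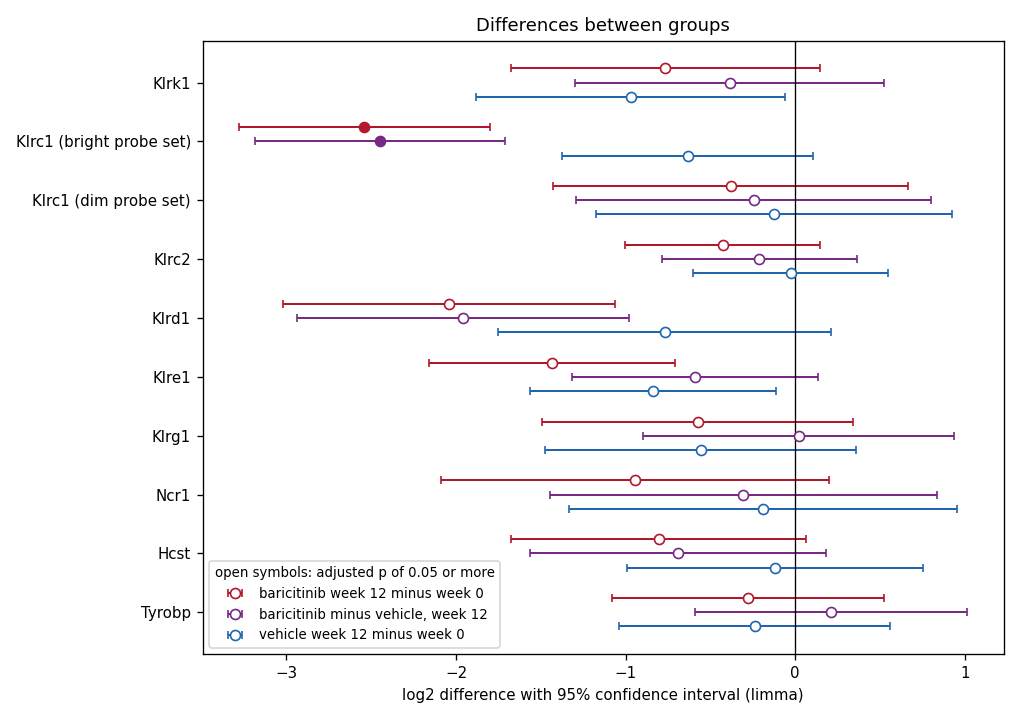
Log2 difference (x axis) with its 95% confidence interval from limma for each probe set (y axis), for baricitinib week 12 minus week 0, baricitinib minus vehicle at week 12, and vehicle week 12 minus week 0; filled symbols passed an adjusted p of 0.05. Only the bright Klrc1 probe set has filled symbols, at -2.54 and -2.45.

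As for the arrays themselves, their mean correlation with the other 11 lay between 0.941 and 0.973, and the lowest were baricitinib week 0 replicate 2 and baricitinib week 12 replicate 1. The study's methods state that baricitinib samples of both times, and a control sample at baseline whose experiment is not named, failed quality control and were left out of further analysis, while the labels used here mark none, so it is not known whether they are among these 12. Without the 2 arrays of lowest mean correlation Klrc1 had -2.51 over time (limma adjusted p = 0.0254) and -2.32 against vehicle at week 12 (limma adjusted p = 0.0231). Klrd1 then had -1.55 over time (limma adjusted p = 0.121), Klre1 -1.11 (limma adjusted p = 0.155) and Klrk1 -1.02 (limma adjusted p = 0.333). Skin markers (keratins and collagens, 7 genes) averaged between 12.19 and 12.88 on every array.

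Ligands of NKG2D were measured by 2 of 9 listed genes, and neither passed a test. H60c, the H60 family member of mouse skin, was at 9.47, 8.96 and 9.12 in baricitinib skin at week 12, against 9.41, 9.63 and 9.55 at week 0. In vehicle skin it was at 10.01, 9.88 and 10.14 at week 12 and 8.76, 9.52 and 9.60 at week 0. The baricitinib arrays of week 12 lay below the vehicle arrays of that week, by -0.83 (SE 0.26, 95% CI -1.38 to -0.27, limma adjusted p = 0.215), and the difference over time was -0.35 with baricitinib and 0.71 with vehicle. Ulbp1, which encodes MULT1, was dim, between 3.03 and 3.84, with -0.17 over time with baricitinib. A probe set shared by Raet1e and Raet1d, of the RAE-1 family, had -0.51 over time (limma adjusted p = 0.596).

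Of the ligands of the other receptors, the cadherins bound by KLRG1 had 0.17 (Cdh1), 0.93 (Cdh2) and 0.81 (Cdh4) over time with baricitinib, 0 of 3 past the test. Dimmer probe sets had 0.27 for Cdh2 and -0.08 and 0.52 for Cdh4. H2-T23, which encodes Qa-1, was covered by probe sets it shares with H2-T-ps, and these had -0.02 and -0.44.

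Among 21 measured genes that signal downstream of the adaptors, 1 fell and 0 rose over time with baricitinib, with a median of -0.11. The 1 was Lcp2, the scaffold SLP-76, at 6.45, 6.50 and 6.68 in baricitinib skin at week 12, against 7.59, 7.86 and 7.56 at week 0. Its difference was -1.13 (SE 0.23, limma adjusted p = 0.0422), while its second, dimmer probe set had -0.30 (limma adjusted p = 0.758). The kinases Syk and Zap70 had -1.07 (limma adjusted p = 0.0936) and -1.11 (limma adjusted p = 0.189), and the adaptor gene Sh2d1a had -1.24, none past the test. Other probe sets of the 2 kinases differed, between -1.17 and 0.25 for Syk and at 0.02 and 0.08 for Zap70. Against vehicle at week 12, 0 of 21 passed. Fcer1g and Cd247, which encode other ITAM adaptors, had -0.41 and 1.01, with 0 of 2 past the test.

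Of 18 measured receptors and ligands of the NK gene complex outside the members, 1 fell over time with baricitinib, with a median of -0.20. This was Cd69, an early activation marker, at 5.38, 6.29 and 5.57 in baricitinib skin at week 12, against 7.68, 6.75 and 7.65 at week 0 (log2 difference -1.61, SE 0.34, limma adjusted p = 0.0429). Clec2e, a C-type lectin gene of the complex, had the largest difference of the list, -2.98 (SE 0.65), and an adjusted p of 0.0526 from limma. Neither Cd69 nor Clec2e passed against vehicle at week 12, where they had -0.91 and -2.72.

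A list drawn up for myeloid receptors that use DAP12 had a median of -0.83 over time with baricitinib, 10 of 12 below 0 and 0 of 12 called. It includes Clec4n (-0.83), whose receptor signals through the adaptor of Fcer1g, so the median and counts are not of DAP12 receptors alone. The largest were Cd200r4 with -1.76 (limma adjusted p = 0.0964), Cd300lb with -1.40 and Cd300c2 with -1.32. Against vehicle at week 12 their median was -0.13. Genes of IL-15 and common gamma chain signalling, which sustains NK cells and CD8+ T cells, had a median of -0.07, with 0 of 10 called, among them Il15 with -0.15, Il21r with -0.63 and Stat5b with 0.53. A dimmer probe set of Stat5b had -0.36.

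Of the markers of cells that carry these receptors, 1 NK cell marker and 1 T cell marker passed the test. Of 10 measured NK cell markers, 1 fell over time with baricitinib, the granule protease Gzma, at 3.55, 6.48 and 2.47 in baricitinib skin at week 12 and 9.66, 8.71 and 10.40 at week 0 (log2 difference -5.42, SE 0.90, limma adjusted p = 0.0176). Gzma is expressed by cytotoxic T cells as well. The list had a median of -0.73, with 8 of 10 differences below 0, and its mean level lay at 5.33 to 5.96 in baricitinib skin at week 12, 6.38 to 6.84 at week 0, 6.03 to 6.61 in vehicle skin at week 12 and 6.74 to 7.30 at week 0. Xcl1, a chemokine of NK and T cells, had -2.16 (limma adjusted p = 0.0769), and the transcription factor gene Tbx21 had -1.21. Above 0 were Prf1, which encodes perforin, with 0.77 (limma adjusted p = 0.433) and Itga2, an integrin gene, with 0.33 (limma adjusted p = 0.711). The NK cell marker Ncr1 was below the array median on all 12 arrays, and Klrb1c was not analysed here on a probe set of its own. Over time with vehicle the NK cell markers had a median of -0.45, with 9 of 10 differences below 0. For the difference of the changes their median was -0.19, with 7 of 10 below 0.

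Of 7 measured T cell markers, 1 fell, Cd8a, which encodes the CD8 alpha chain, at 3.79, 6.61 and 4.59 in baricitinib skin at week 12, against 9.80, 9.37 and 8.69 at week 0. The difference was -4.29 (SE 0.60, limma adjusted p = 0.00912), with -4.19 for a second bright probe set of 5 and between -1.34 and -0.15 for 3 dimmer ones that did not pass. The list had a median of -0.51, with 5 of 7 differences below 0. Cd5 and Cd2, which encode surface receptors of T cells, had -0.83 (limma adjusted p = 0.582) and -0.57 (limma adjusted p = 0.661), and Cd8b1, which encodes the CD8 beta chain, had -0.51 (limma adjusted p = 0.757). The genes of the CD3 chains, shared by all T cells, had 0.01 (Cd3e), -0.08 (Cd3d) and 0.55 (Cd3g). Mean T cell marker level was 6.13 to 6.87 in baricitinib skin at week 12, 6.75 to 7.93 at week 0, 6.88 to 7.85 in vehicle skin at week 12 and 7.62 to 7.98 at week 0. Over time with vehicle the T cell markers had a median of -0.37, with 7 of 7 differences below 0. For the difference of the changes their median was 0.13, with 3 of 7 below 0. Gzma (-5.48, limma adjusted p = 0.0247) and Cd8a (-4.39, limma adjusted p = 0.0109) were also lower in baricitinib than in vehicle skin at week 12, and these 2 were the listed genes called there. The part of cell numbers in the change of Klrc1 was not tested.

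Other cell types gave 0 calls in both comparisons. Macrophage and monocyte markers had a median of -0.44 over time with baricitinib (0 of 12 called), with Fcgr1 at -2.59, C1qb at -1.58 and C1qc at -1.34. Their mean level was 7.43 to 8.35 in baricitinib skin at week 12 and 8.52 to 8.59 at week 0. In vehicle skin it was 7.55 to 8.34 at week 12 and 7.88 to 9.30 at week 0. Their median was -0.35 over time with vehicle and -0.17 between baricitinib and vehicle at week 12. Mast cell markers had a median of 0.76 over time with baricitinib and 0.61 with vehicle (0 of 5 called in each). With baricitinib Mcpt4 had 1.79 and Tpsb2 1.54, while Kit had -0.75, the 1 of 5 below 0. A second, dimmer probe set of Tpsb2 had -0.22. Of the gamma delta T cell markers 1 of 9 was measured, Sox13, with -0.73.

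**Figure D4:**
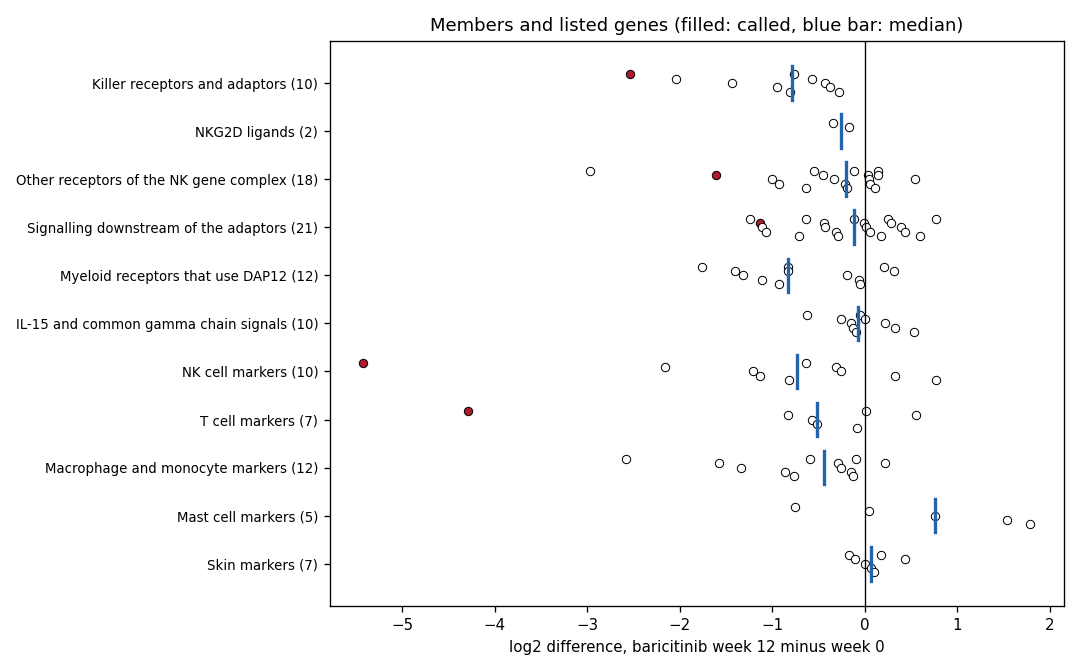
Log2 difference of baricitinib week 12 minus week 0 (x axis) for the members and for genes of the lists (y axis, number of genes or probe sets in brackets); filled dots passed an adjusted p of 0.05 and blue bars are medians. The members centre on -0.79, the NK cell markers on -0.73 and the skin markers near 0, with Gzma (-5.42) and Cd8a (-4.29) farthest to the left.

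The genes whose pattern over the 12 arrays was most like that of a member differed between NKG2D and NKG2A. For the bright Klrc1 probe set they were Ikzf3 (Pearson r = 0.98), AU020206 (0.97), Cd8a (0.97), Glipr1 (0.97) and Yaf2 (0.96), all with a difference between -4.29 and -1.35 over time with baricitinib. For Klrk1 they were Vav1 (0.93, by a different probe set from the brightest one), Tirap (0.91), Rac2 (0.91), C130021I20Rik (0.90) and Cops9 (0.89). For deviations from the group means these correlations were 0.58 to 0.84 for Klrc1 and 0.80 to 0.92 for Klrk1. Klrk1 and Klrc1 had a correlation of 0.61 over the 12 arrays and of 0.04 within the groups. All are descriptions over 12 arrays from 6 mice that were scaled together.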

How the data were processed

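RNA from whole skin was amplified, labelled and hybridised by the authors to Affymetrix arrays, 12 for 6 mice. The authors normalized the arrays by RMA, apart from their other experiments, and deposited log2 values, which were used as deposited. The version of RMA is not given in the sources used here, nor is whether samples that failed quality control entered the normalization. After 64 control probe sets were left out, 45037 were tested without a filter. By GEO's platform annotation 34945 carried 1 symbol, 932 several and 9160 none, and 0 symbols needed updating through the gene ID. For the lists, the brightest probe set on average stood for each gene, and listed genes without a probe set of their own were not analysed here.

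Linear models with a mean for each of the 4 groups were fitted to all 12 arrays with limma 3.58.1 in R 4.3.3 (8 residual and 3.54 prior degrees of freedom). In each of 5 comparisons the Benjamini-Hochberg adjustment ran over the whole table, with a threshold of 0.05. The model was tested on simulated data with independent noise on each array, so arrays that share a mouse were not part of that test. Promoters were read with Python 3.11.15 and figures drawn with matplotlib 3.10.9. All member probe sets are named, and of the 13 lists those genes that were called plus up to 3 with the largest change over time with baricitinib. Cd3d, Cd3e, Cd3g, Cd8b1, Prf1, Itga2, Syk, Il15, Kit and Clec4n are named besides, after their values were seen. For Klrk1 and each called probe set the 5 most correlated genes are named. The members and lists were chosen with earlier results of these data known.

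Replicate numbers mark mice in the labels, since each number carries the same animal number at both times. Deviations from the group means at week 0 and week 12 correlated at -0.36, -0.51 and 0.47 in the baricitinib mice and 0.44, -0.13 and 0.49 in the vehicle mice. Alternative settings were cyclic loess, median centring, leaving out the dimmest 25% of probe sets, a variance prior that follows the level, 1 probe set per gene, a replicate block for the mouse (fixed, or random), separate fits for each pair of groups, and leaving out single arrays. Leaving out together the 2 arrays with the lowest correlation was chosen after seeing the data.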

Additional observations from a re-analysis of the deposited data

How the results depend on the processing

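The call of Klrc1 (bright probe set) over time with baricitinib held in all 21 alternatives, with log2 differences of -2.80 to -2.34 and limma adjusted p of 0.00355 to 0.0472. Against vehicle at week 12 it held in 17 of 20 (limma adjusted p 0.00681 to 0.0611). The count of members called over time with baricitinib was 2 without the dimmest 25% of probe sets and 2 with median centring (Klrc1 and Klrd1), and 3 with cyclic loess and 3 with 1 probe set per gene (Klrc1, Klrd1 and Klre1), against 1. Leaving out 1 array gave 1 to 3 calls over time with baricitinib, with 3 without vehicle week 0 replicate 1 and 2 without baricitinib week 0 replicate 1 or vehicle week 0 replicate 3. It gave 0 to 1 calls against vehicle at week 12 and 0 in the other 3 comparisons. With the mouse as a replicate block, fixed or random, 1 member was called over time with baricitinib, Klrc1 (limma adjusted p = 0.0366 fixed and 0.00733 random), and the block changed no other call of a member (the fixed block cannot compare the 2 treatments at 1 time, since they are different mice), while the calls over all probe sets were 130 lower and 28 higher with the fixed block. Calls over all probe sets (394 lower over time with baricitinib and 193 lower against vehicle at week 12) moved with single arrays, to 60 lower over time without baricitinib week 0 replicate 3 and 749 without baricitinib week 12 replicate 1, and to 21 lower against vehicle without vehicle week 12 replicate 1. Without baricitinib week 12 replicate 1 there were 258 higher against vehicle at week 12 (68 with all arrays), and the difference of the changes had 32 lower and 23 higher calls over all probe sets, none of them a member, and with 1 probe set per gene 8 lower and 4 higher. Fits of only the 2 groups compared gave 88 lower and 9 higher over time and 43 lower and 12 higher against vehicle at week 12.

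Signs turned only for differences that passed no test. With cyclic loess, median centring and without the 2 least correlated arrays, Klrg1 against vehicle at week 12 was -0.0527, -0.0325 and -0.39, and Hcst at week 0 was 0.0788, 0.0114 and 0.10. Without those 2 arrays, Klrg1 at week 0 was -0.33, Klre1 at week 0 -0.28, the difference of the changes of Klrk1 -0.0487 and that of Tyrobp 0.00832. With cyclic loess the dim Klrc1 probe set at week 0 was -0.12 and Klre1 at week 0 -0.0121. Leaving out 1 array gave, at week 0, -0.20 to 0.37 for Hcst, -0.31 to 0.58 for the dim Klrc1 probe set, -0.28 to 0.40 for Klre1, -0.33 to 0.34 for Klrg1, -0.0470 to 1.17 for Ncr1 and -0.0276 to 0.72 for Tyrobp. Over time with vehicle it gave -0.42 to 0.28 for Hcst, -0.45 to 0.45 for the dim Klrc1 probe set, -0.0884 to 0.0779 for Klrc2, -0.69 to 0.53 for Ncr1 and -0.52 to 0.23 for Tyrobp. Against vehicle at week 12 it gave -0.48 to 0.0284 for the dim Klrc1 probe set and -0.39 to 0.25 for Klrg1. For the difference of the changes it gave -0.83 to 0.0700 for the dim Klrc1 probe set, -0.43 to 0.35 for Klrg1, -0.24 to 0.47 for Klrk1 and -0.51 to 0.24 for Tyrobp. The cause of these changes was not tested. The values have no detection call, so that signal over background is unknown, and 3 arrays a group limit what can be seen for Klrk1.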
